A study of Mus musculus with 30 samples.

Results

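The arrays taken at 60 h of a retinoic acid time course were compared with those taken at 36 h in KH2 mouse embryonic stem cells, which were kept on feeder fibroblasts. These are 6 of the 30 arrays of the series, chosen by their titles, with 3 arrays (A, B and C) at 60 h and 3 (A, B and C) at 36 h. Both groups carry the retinoic acid label, with RA at 0.3 uM, so neither is an untreated control and the contrast is between 2 times under the same agent. The labels describe a 30 minute replating on gelatin before lysis in 2 ways, with RNA either from the cells that adhered or from those in the medium drawn off. Total RNA (200 ng) was labelled with biotin and hybridised to Affymetrix mouse genome arrays, 1 array a sample. The labels do not say that the arrays came from separate cultures, so p-values here measure only the spread between these samples, which may be technical. The comparison was set up as the exit from a peak of early Hox and hindbrain expression, and that description was checked against the values.

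Retinoic acid, made from vitamin A, binds RAR and RXR nuclear receptors that sit on response elements in DNA and switch their neighbouring genes on. In the embryo it patterns the hindbrain and spinal cord, where genes of the 4 Hox clusters are switched on in an order that follows their place in the cluster, from the anterior members toward the posterior ones. Stem cells given RA lose pluripotency genes and take on neural fates with a hindbrain or spinal cord position, together with some endoderm and mesoderm cells.

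Values are log2 intensities as deposited, with array medians between 6.34 and 6.39 over all arrays, and changes are log2 differences, 60 h minus 36 h, with their standard errors (SE) from limma. Each of 18193 genes is read from 1 probe set, and a gene was called at a limma adjusted p (Benjamini-Hochberg, over all genes) under 0.05. The files hold no detection calls. Where the lower group mean lay under 4.73, the lowest lower quartile of any array, the change is given as a bound ("at least") from that level. Array C at 60 h stood apart from its group. Its correlation over all probe sets was 0.9905 with 60 h A and 0.9936 with 60 h B, against 0.9953 with 72 h B and 0.9951 with 48 h A, while 60 h A and B correlated at 0.9963. The spike-in difference BioDn minus BioC was 1.35 to 1.52 at 60 h and 1.38 to 1.44 at 36 h, which overlap. Each 18S rRNA probe set read higher at 60 h with no overlap, and the 5' one read 8.95 to 9.17 at 60 h and 8.12 to 8.43 at 36 h. Of 64 control probe sets, 6 had all 60 h arrays above all 36 h arrays and 5 had them all below. The part of these differences in the results was not tested. In bulk RNA, fewer cells of a type and less RNA per cell cannot be told apart.

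At 60 h, 3817 genes (21.0%) differed from 36 h by limma, with 1269 higher (6.98%) and 2548 lower (14.0%). The falls were more numerous and smaller, with a median of -0.40 log2 among the lower genes and 0.58 among the higher ones. Of the 425 genes that changed by at least 1 log2, 281 were higher and 144 lower. The median change over all genes was -0.06. In 12.0% of genes the lowest 60 h array exceeded the highest 36 h array, and in 25.9% the reverse held. Among the 15 largest rises were Zic1, Tfap2b, Nhlh2 and Neurod4, of the neural tube, neural crest and young neurons, and the aldehyde dehydrogenases Aldh1a1 and Aldh1a7. Among the 15 largest falls were the stem cell genes Trh and Tdgf1, the Nodal antagonists Lefty1 and Lefty2 and the epiblast gene Pou3f1.

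**Figure D1:**
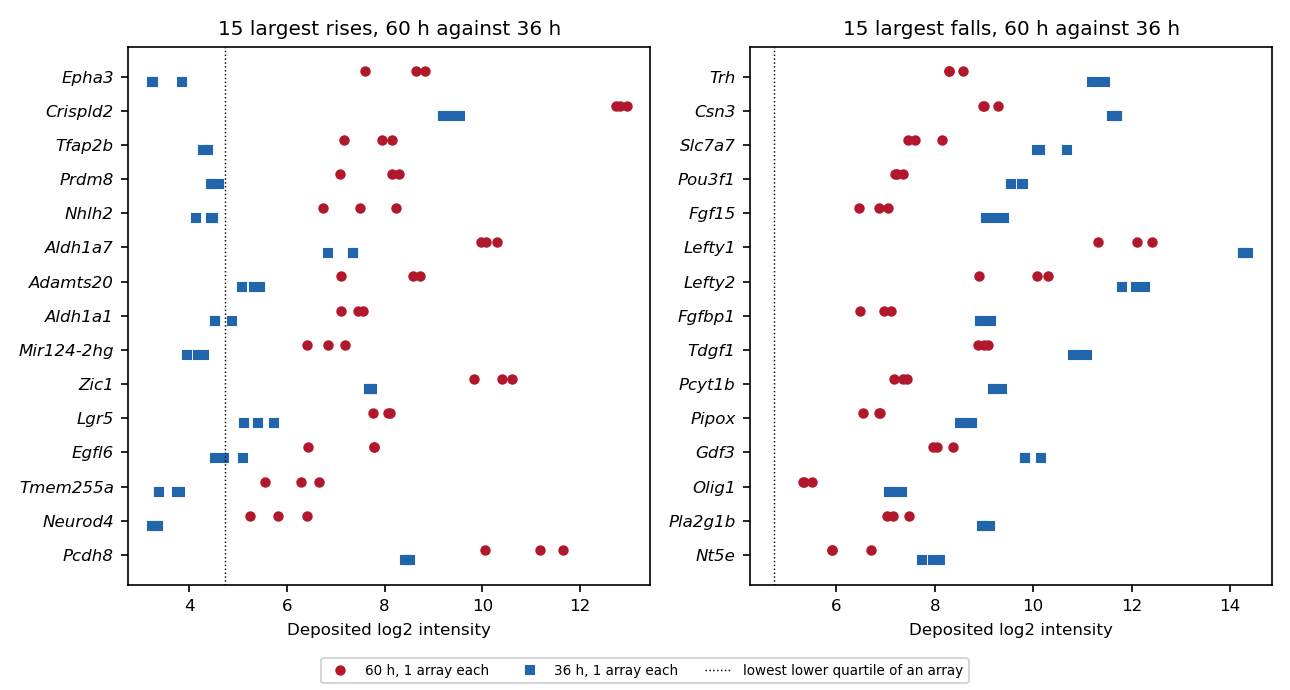
Deposited log2 intensity of the 15 genes with the largest called rises (left) and the 15 with the largest called falls (right). Red circles are the 3 arrays at 60 h, blue squares the 3 arrays at 36 h and the dotted line the 4.73 level. These genes were chosen among those whose arrays do not overlap between the times, and the spread among the 60 h arrays is wider for Epha3, Lefty1 and Lefty2 than among the 36 h arrays.

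Epha3, an ephrin receptor that guides axons, had the largest fitted rise by the probe set with the highest mean. It stood at 7.60, 8.83 and 8.64 in the 60 h arrays, against 3.26, 3.24 and 3.86 in the 36 h arrays, all of which lie under the 4.73 level. The rise on this probe set was at least 3.63 log2 (limma adjusted p = 5.3e-15), and the change was 2.51 with the mean of all probe sets of the gene. Its mean at 48 h, 5.69, lay between the others. Tfap2b, a transcription factor of the neural crest, had 8.14, 7.95 and 7.16 at 60 h, against 4.38, 4.29 and 4.36 at 36 h, a rise of at least 3.02 (limma adjusted p = 6.2e-09). Here array C was the lowest at 60 h yet still far above the 36 h arrays.

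Crispld2, a secreted protein of the cysteine-rich family, read 12.73, 12.95 and 12.81 at 60 h, against 9.20, 9.54 and 9.36 at 36 h. The change was 3.46 ± 0.16 (SE, limma adjusted p = 3.8e-14), and the other 2 probe sets of Crispld2 were called higher as well. Aldh1a1 and Aldh1a7 are related aldehyde dehydrogenases, the first of which makes retinoic acid. Aldh1a1 had 7.56, 7.45 and 7.10 at 60 h, against 4.88, 4.52 and 4.52 at 36 h, a rise of at least 2.64 (limma adjusted p = 3.9e-10). Aldh1a7 had 10.29, 9.97 and 10.07 at 60 h, against 7.36, 7.35 and 6.83 at 36 h, a change of 2.93 ± 0.33 (SE, limma adjusted p = 3.4e-07). The 2 genes are close in sequence, and probe sets of close relatives can share signal.

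Among the other rises, Nhlh2 and Neurod4 are helix-loop-helix factors of young neurons. Nhlh2 had 6.73, 8.23 and 7.50 at 60 h, against 4.49, 4.44 and 4.14 at 36 h (at least 2.76, limma adjusted p = 5.2e-10). Neurod4 had 5.24, 6.41 and 5.82 at 60 h, against 3.24, 3.37 and 3.31 at 36 h (at least 1.09, limma adjusted p = 2.7e-11). The host transcript of a neuronal microRNA, Mir124-2hg, had 6.42, 6.85 and 7.19 at 60 h, against 4.30, 3.95 and 4.17 at 36 h (at least 2.09, limma adjusted p = 2.7e-11). In all 3 genes the 60 h values were spread over more than the 36 h values. The lack of overlap was a condition for naming the 15 largest rises. Zic1, a zinc finger factor of the dorsal neural tube, stood at 9.83, 10.60 and 10.41 at 60 h, against 7.67, 7.71 and 7.74 at 36 h, a change of 2.57 ± 0.31 (SE, limma adjusted p = 8.2e-07). Lgr5, a receptor for R-spondins in Wnt signalling, changed by 2.57 ± 0.16 (SE, limma adjusted p = 1.6e-11), and its other probe set was not called (1.32 with the mean of both). The remaining rises of the 15 were Prdm8 (at least 3.11), the protease Adamts20 (2.85), Egfl6 (2.55), Tmem255a (at least 1.43) and the protocadherin Pcdh8 (2.50). The call of Tmem255a ended on another probe set, with 0.05, where probe set types that can cross-hybridise were left out, and its change was 1.01 with the mean of its probe sets.

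Trh, the thyrotropin-releasing hormone precursor that stem cells express, had the largest fall. It read 8.28, 8.28 and 8.57 at 60 h, against 11.45, 11.29 and 11.19 at 36 h, a change of -2.93 ± 0.13 (SE, limma adjusted p = 5.3e-15). Lefty1 and Lefty2, secreted antagonists of Nodal, fell together. Lefty1 had 11.32, 12.10 and 12.41 at 60 h, against 14.27, 14.26 and 14.37 at 36 h (-2.36 ± 0.17, SE, limma adjusted p = 9.1e-11), and Lefty2 had 8.90, 10.08 and 10.31 at 60 h, against 11.81, 12.08 and 12.27 at 36 h (-2.29 ± 0.23, SE, limma adjusted p = 7.6e-08). In both, array A was the lowest at 60 h. Tdgf1 (Cripto), the Nodal coreceptor, changed by -1.96 ± 0.12 (SE, limma adjusted p = 1.2e-11), and Gdf3, a Nodal-related ligand, by -1.81.

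Pou3f1, a POU factor of the epiblast and neural plate, had 7.36, 7.23 and 7.20 at 60 h, against 9.77, 9.80 and 9.54 at 36 h, a change of -2.44 ± 0.14 (SE, limma adjusted p = 2.4e-12). Fgf15, a fibroblast growth factor, had 6.46, 6.87 and 7.04 at 60 h, against 9.21, 9.04 and 9.41 at 36 h (-2.44 ± 0.30, SE, limma adjusted p = 1.5e-06). Within each of these genes the arrays of a time lay close together. That the 2 times do not overlap was a condition for naming the 15 largest falls. The casein gene Csn3 changed by -2.59, the amino acid transporter Slc7a7 by -2.57, Fgfbp1, which binds and releases FGFs, by -2.15, Pcyt1b, of phosphatidylcholine synthesis, by -1.93, Pipox by -1.85, the oligodendrocyte-lineage factor Olig1 by -1.80 and the phospholipase Pla2g1b by -1.80 (-0.89 with the mean of its probe sets). Nt5e (CD73), an ecto-enzyme that makes adenosine, was the last of the 15 at -1.77, and its call ended without 36 h A (-1.75), 36 h B (-1.68), 36 h C (-1.86), 60 h B (-1.64) or 60 h C (-1.63). With the mean of its probe sets it was -0.72.

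Of 33 Hox genes measured, limma called 6 higher at 60 h and 1 lower, against 6.98% of all genes higher and 14.0% lower. The calls fell in different clusters. The Hoxc cluster had 4 of 7 genes higher and 0 lower (median change 0.88), and the Hoxd cluster had 2 of 8 higher and 0 lower (median 0.18). The Hoxb cluster had 1 of 9 lower and 0 higher (median -0.43), and the Hoxa cluster had 0 of 9 called (median -0.12). The difference between clusters was not tested. The fit over all arrays takes its spread in part from the 12 h and 24 h groups, which hold 2 array sets with unlike Hox levels. A fit of arrays of 1 set (12 h D to F, 24 h D to F and all later arrays) called 9.17% of all genes higher and 20.0% lower. In it, 3 of 9 Hoxa genes and 5 of 9 Hoxb genes were lower with 0 higher, and 4 of 7 Hoxc and 3 of 8 Hoxd genes were higher with 0 lower. With the array letter as a replicate block, a fit that called 9.56% of genes higher and 20.1% lower, 1 of 10 anterior, 3 of 9 central and 3 of 14 posterior Hox genes were higher, and 3, 2 and 1 of them were lower.

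**Figure D2:**
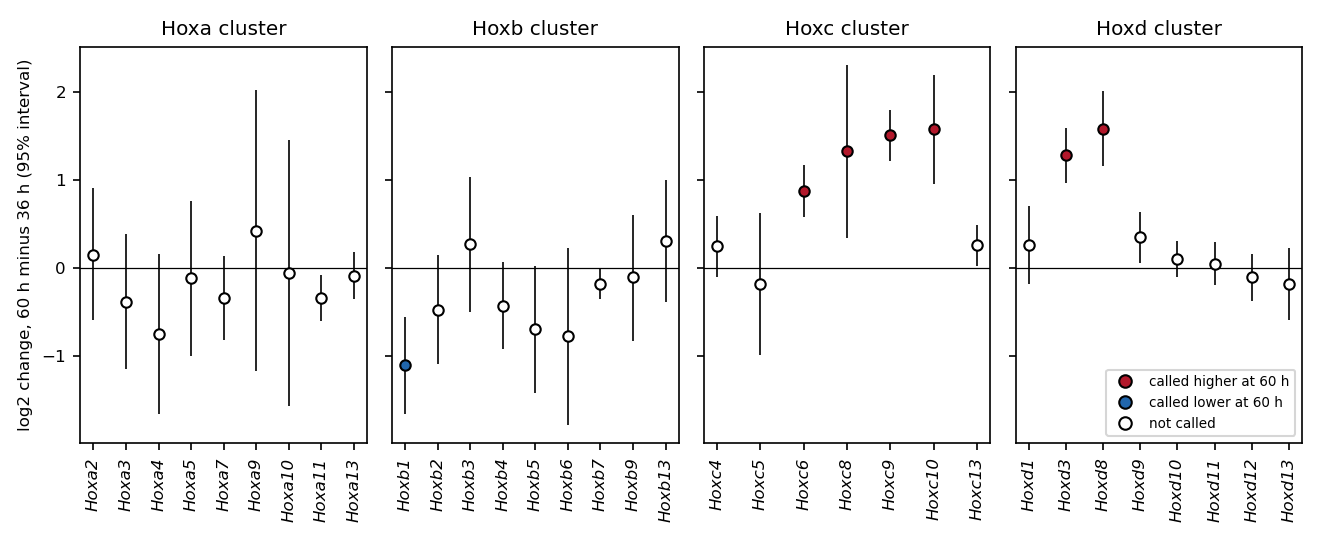
Change of each measured Hox gene between 60 h and 36 h (log2, 60 h minus 36 h), by cluster and in the order of the gene number. Points are fitted changes and bars 95% confidence intervals of the fit over all 30 arrays. The called rises lie in the Hoxc and Hoxd clusters between 0.88 and 1.58, and the called fall is Hoxb1 at -1.11.

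Hoxb1, which gives rhombomere 4 of the hindbrain its identity, was the Hox gene called lower at 60 h in the fit over all arrays. It stood at 12.12, 11.72 and 11.53 at 60 h, against 12.96, 12.94 and 12.81 at 36 h, a change of -1.11 ± 0.27 (SE, limma adjusted p = 0.00357), or 2.16-fold lower. Its mean at 48 h was already 11.91. Hoxb5 had 10.12, 10.23 and 10.42 at 60 h, against 10.85, 11.01 and 11.03 at 36 h, and Hoxb6 had 10.62, 10.84 and 10.66 at 60 h, against 11.40, 11.69 and 11.37 at 36 h. The times did not overlap in either gene, with 60 h lower. The change of Hoxb5, -0.70, had a limma adjusted p of 0.172 over all arrays and 1.3e-05 within 1 array set, and that of Hoxb6, -0.78, had 0.296 and 3.1e-05. Hoxa4 (-0.75), Hoxb2 (-0.48), Hoxb4 (-0.43), Hoxa3 (-0.39) and the posterior gene Hoxa11 (-0.34) were likewise called lower only within 1 array set among these 2 fits. These anterior and central genes pattern the hindbrain and the cervical cord. Of the 3 other probe sets of Hoxa3, 1 was called the other way, higher at 60 h, over all arrays and 0 were called lower.

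Apart from Hoxd3, the Hox genes called higher belong to the central and posterior groups, which pattern the spinal cord. Hoxd3 had 7.16, 7.33 and 7.37 at 60 h, against 6.17, 5.79 and 6.06 at 36 h, a change of 1.28 ± 0.15 (SE, limma adjusted p = 7.6e-07). Hoxd8 had 9.23, 9.29 and 9.21 at 60 h, against 7.64, 7.53 and 7.82 at 36 h (1.58 ± 0.21, SE, limma adjusted p = 3.3e-06). Hoxc9, a thoracic-level gene, had 10.22, 10.57 and 10.47 at 60 h, against 9.01, 8.90 and 8.81 at 36 h (1.51 ± 0.14, SE, limma adjusted p = 1.5e-08). Hoxc10, of lumbar levels, had 8.72, 9.49 and 9.81 at 60 h, against 7.63, 7.82 and 7.85 at 36 h (1.58 ± 0.30, SE, limma adjusted p = 0.0004). In each of these genes the 3 arrays at 60 h lay above the 3 at 36 h. Hoxc6 changed by 0.88 ± 0.14 (SE, limma adjusted p = 6.4e-05). Hoxc8, with 10.83, 10.98 and 11.34 at 60 h, against 9.59, 9.65 and 9.92 at 36 h, changed by 1.33 ± 0.48 (SE, limma adjusted p = 0.05, just inside the threshold). Its call ended without any 1 of the 6 arrays, with 1.18 to 1.44, and within 1 array set its limma adjusted p was 0.00015. Hoxd9 (0.35) was called within 1 array set, with a limma adjusted p of 0.0215, and not over all arrays. Hoxa13, Hoxd10, Hoxd11 and Hoxd12 lay under 4.73 at both times.

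A peak at 36 h was found for some of the genes and not for most. Among the means at 12 h (D to F), 24 h (D to F), 36 h, 48 h, 60 h and 72 h, the highest fell at 36 h for 6 of 33 Hox genes (Hoxb2, Hoxa7, Hoxb5, Hoxb6, Hoxc5 and Hoxb9), at 24 h for 6, at 60 h for 10 and at 72 h for 8. Of 17 genes on the hindbrain list, 2 were highest at 36 h (Egr2 and Zfp703), 5 at 60 h and 5 at 72 h. These counts include genes whose means lay under 4.73 at each of these times. They are Hoxd10, Hoxd11, Hoxd12 and En1 (highest at 72 h) and Hoxa13 (at 48 h). Some highest means were near ties, such as Hoxa5 (12.12 at 24 h, 12.11 at 36 h) and Hoxa7 (8.59 at 36 h, 8.58 at 72 h). Of the Hox genes called lower at 60 h in either of these fits, Hoxb2, Hoxb5 and Hoxb6 had their highest mean at 36 h, Hoxb1, Hoxa3, Hoxa4 and Hoxb4 at 24 h, and Hoxa11 at 72 h. Of the hindbrain genes called lower in either fit, Egr2 and Zfp703 were highest at 36 h, and Epha2, Gbx2 and En2 at 24 h. The Hoxc and Hoxd genes above were higher at 60 h, so the description as an exit from a peak does not cover them.

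For some genes the 2 steps through 48 h differed. The contrast of both 12 h steps, (60 h minus 48 h) minus (48 h minus 36 h), was called in 888 genes (4.88%), 433 positive (2.38%) and 455 negative (2.50%), and with the replicate block in 2186 (12.0%). Of 33 Hox genes, 4 were positive and 2 negative. Within 1 array set, where 5.74% of genes were positive and 4.25% negative, 13 Hox genes were positive and 1 negative. The 48 h mean lay below both others in 8 of 10 anterior Hox genes, against 26.3% of all genes. Hoxb4 showed this form, with means of 10.02 at 36 h, 9.02 at 48 h and 9.59 at 60 h (contrast 1.57 ± 0.41, SE, limma adjusted p = 0.0271). Hoxc4 had 10.56, 9.99 and 10.81 at those times (contrast 1.38, limma adjusted p = 0.00614) and Hoxd1 had 8.21, 7.69 and 8.47 (1.31, limma adjusted p = 0.0408).

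**Figure D3:**
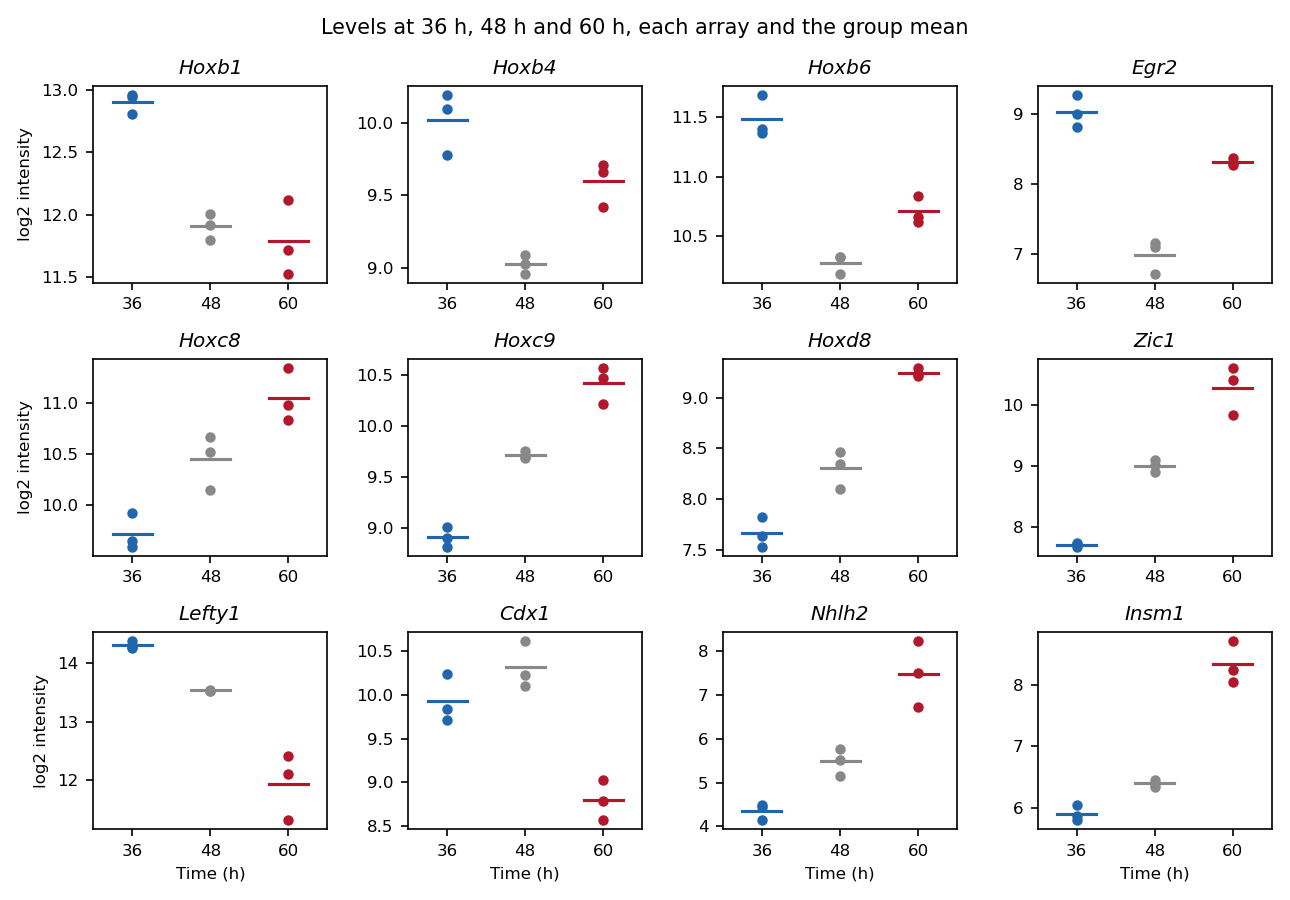
Deposited log2 intensity at 36 h, 48 h and 60 h for 12 genes, with 1 point an array (3 a time) and a line at the mean. The vertical axis differs between panels and does not start at 0. Hoxb4, Hoxb6 and Egr2 are lowest at 48 h, Hoxc8, Hoxc9, Hoxd8 and Zic1 climb through 48 h, and Cdx1 is highest at 48 h and lowest at 60 h.

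Egr2 (Krox20), the zinc finger factor of rhombomeres 3 and 5, dipped furthest among the hindbrain genes. It read 9.00, 9.28 and 8.82 at 36 h, 7.16, 6.72 and 7.10 at 48 h and 8.37, 8.31 and 8.28 at 60 h. The 3 times did not overlap. The net change was -0.71 ± 0.19 (SE, limma adjusted p = 0.00738), and the contrast of the steps was 3.36 ± 0.33 (SE, limma adjusted p = 2.5e-06). Without 36 h B the net change was -0.59 and was not called. Egr2 is also an immediate early gene, which answers growth signals within minutes. On the immediate early list, which holds Egr2, 15 of 20 genes had their lowest mean of the 3 times at 48 h, against 26.3% of all genes. At 60 h against 36 h, 3 of the 20 were lower (Ier2 at -0.56, Junb at -0.54 and Egr2) and 1 was higher, Fosl2 at 0.61, a call that ended without 36 h A (0.44). Those shares, 15.0% and 5.0%, were near the 14.0% and 6.98% of all genes.

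Of 17 hindbrain and neural plate genes, limma called 8 higher (47.1%) and 3 lower (17.6%) at 60 h, against 6.98% and 14.0% of all genes. The median was 0.13, and 6 genes were not called. Nr2f1 and Nr2f2, the COUP-TF orphan receptors that RA induces, led the rises. Nr2f2 had 11.75, 11.84 and 11.58 at 60 h, against 9.32, 9.55 and 9.21 at 36 h (2.36 ± 0.25, SE, limma adjusted p = 9.8e-08), and all 5 other probe sets of the gene were called higher. Nr2f1 had 11.33, 11.68 and 11.64 at 60 h, against 9.35, 9.62 and 9.42 at 36 h (2.09 ± 0.39, SE, limma adjusted p = 0.00035). Zfp503, a zinc finger corepressor, changed by 1.37, while its relative Zfp703 had -0.50 (limma adjusted p = 0.0819, and 2.2e-05 within 1 array set). Irx3, a homeodomain factor of the neural tube, had 11.45, 11.59 and 11.46 at 60 h, against 10.55, 10.55 and 10.64 at 36 h (0.92 ± 0.08, SE, limma adjusted p = 7.4e-09). Nearly all of that rise came after 48 h, where the mean was 10.71. Irx2 (0.33) and the ephrin receptor Epha4 (0.37) were called at limma adjusted p = 0.0477 and 0.0379, and each lost the call without any of 5 of the 6 arrays, with 0.28 to 0.39 over both genes, while the mean of its probe sets gave 0.93 for Epha4. Vgll4, a cofactor of TEAD factors, had 8.79, 8.13 and 7.32 at 60 h, against 7.44, 6.99 and 6.91 at 36 h. These arrays overlapped, and its change of 0.97 was 0.61 and not called without 60 h A.

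Of the 3 that fell, Epha2, another ephrin receptor, changed by -1.05 ± 0.14 (SE, limma adjusted p = 5.6e-06) and Egr2 as given. Gbx2, which places the midbrain-hindbrain border and is also a stem cell factor, had 9.70, 9.41 and 9.24 at 60 h, against 10.70, 10.69 and 10.65 at 36 h. Its change of -1.23 ± 0.42 (SE, limma adjusted p = 0.0351) was lost without any 36 h array, without 60 h B or without 60 h C, with -1.12 to -1.24. Otx2, the forebrain and midbrain factor, and En1, of the midbrain, lay under 4.73 at both times. The count of hindbrain genes called higher was 5 without 60 h A, and that of genes called lower was 1 without 36 h B. With the replicate block 5 of 17 were lower.

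Of the genes of the tail bud and caudal axis, limma called 3 of 7 lower and 0 higher (median -0.71), against 14.0% of all genes lower and 6.98% higher. Cdx1, a caudal homeodomain factor that activates Hox genes, had 8.79, 8.57 and 9.03 at 60 h, against 10.24, 9.84 and 9.71 at 36 h (-1.13 ± 0.21, SE, limma adjusted p = 0.00026). At 48 h its mean was 10.32, above both, and the contrast of the steps was -1.90 (limma adjusted p = 0.00246). Cdx2 lay between 6.69 and 7.39 at 60 h, against 7.39 to 7.94 at 36 h, and was not called over all arrays (-0.71, limma adjusted p = 0.064). Its limma adjusted p was 0.00562 within 1 array set and 0.0507 in the fit of the groups compared alone. Fgf8 changed by -0.92 ± 0.24 (SE, limma adjusted p = 0.00639). Gdf11, a ligand that sets trunk to tail identity, changed by -0.29, a call that ended without 36 h A (-0.28), 36 h C (-0.20), 60 h A (-0.27) or 60 h B (-0.25). Nkx1-2, of the caudal epiblast, had 4.77, 4.96 and 5.86 at 60 h, against 7.24, 6.65 and 6.95 at 36 h. Those arrays do not overlap, yet its change of -1.75 had a limma adjusted p of 0.187 over all arrays. Nkx1-2 was called lower within 1 array set (limma adjusted p = 1.6e-05), with the replicate block (3.8e-05) and in the fit of the groups compared alone (0.00709). With the replicate block 5 of the 7 were lower.

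TALE proteins bind DNA beside Hox factors. Of 8 measured, Meis3 alone was called over all arrays, higher by 0.62 ± 0.14 (SE, limma adjusted p = 0.0023), and with the replicate block 3 were higher and 2 lower. Meis1 had 11.29, 11.22 and 11.21 at 60 h, against 10.59, 10.67 and 10.69 at 36 h, and Meis2 had 12.03, 11.97 and 11.82 at 60 h, against 11.62, 11.54 and 11.47 at 36 h. The times did not overlap in either, with 60 h higher, and the changes were 0.59 (limma adjusted p = 0.412) and 0.40 (limma adjusted p = 0.406). Within 1 array set the limma adjusted p was 0.00134 for Meis1 and 0.00349 for Meis2, and both were also called with the replicate block (0.00711 and 0.0365) and in the fit of the groups compared alone.

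Genes that make, carry, sense and clear retinoic acid were partly higher at 60 h, with 8 of 23 called higher, 2 lower and a median of 0.02. Those shares were 34.8% and 8.7%, against 6.98% and 14.0% of all genes. Among the receptors, Rarb, which RA itself induces, had 10.87, 10.81 and 10.47 at 60 h, against 9.37, 9.49 and 9.29 at 36 h (1.34 ± 0.16, SE, limma adjusted p = 1.4e-06). Rarg had 9.28, 9.10 and 9.09 at 60 h, against 9.77, 9.84 and 9.83 at 36 h (-0.66 ± 0.08, SE, limma adjusted p = 1.5e-06). The 2 receptors moved in opposite directions, and in neither did the times overlap. Rara had -0.35 (limma adjusted p = 0.0805), and Rxra changed by 0.33, a call lost with the mean of its probe sets (0.18). The coactivator Ncoa3 changed by -0.28, and its call ended without 36 h B (-0.26), 60 h B (-0.24) or 60 h C (-0.25) and in the fit of the groups compared alone. With the replicate block 4 of the 23 were lower.

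On the side of supply, Aldh1a1 was given above, while Aldh1a2 (-0.13) and Aldh1a3 (-0.04), the other retinaldehyde dehydrogenases, were not called. Rdh10, which makes retinaldehyde, changed by 0.78 ± 0.18 (SE, limma adjusted p = 0.00262) and Stra6, the retinol transporter, by 0.49 ± 0.14 (SE, limma adjusted p = 0.0125). Crabp1, a cytoplasmic carrier of RA, had 11.54, 11.82 and 11.25 at 60 h, against 10.43, 10.14 and 10.18 at 36 h (1.29 ± 0.16, SE, limma adjusted p = 2.1e-06). Its relative Crabp2, which delivers RA to the nucleus, had 13.77, 13.48 and 13.12 at 60 h, against 13.80, 13.81 and 13.51 at 36 h, which overlap (-0.25, limma adjusted p = 0.315). Cyp26b1, which clears RA, had 8.51, 8.94 and 8.25 at 60 h, against 7.19, 7.54 and 7.24 at 36 h (1.25 ± 0.13, SE, limma adjusted p = 1.8e-07). Cyp26a1, the clearing enzyme that answers RA first, was near the top of the scale at both times, with 13.76, 13.44 and 13.08 at 60 h, against 13.20, 13.28 and 12.89 at 36 h (0.30, limma adjusted p = 0.371). Tgm2, a transglutaminase induced by RA, changed by 0.63, a call lost without 36 h A (0.55) or 60 h B (0.57). Stra8, a germ cell gene that RA induces, had -0.35 (limma adjusted p = 0.138).

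Rarb and Cyp26a1 are shown by their promoters because both hold a retinoic acid response element of the DR5 type, a pair of receptor half-sites spaced by 5 bases, and Rarb was called while Cyp26a1 was not. The difference between their changes was not tested. The element was found in the 300 base windows (250 before and 50 after the start, RefSeq, GRCm38.p6, both strands) of 31 of 27025 genes (0.115%) and of 2 of the 18 retinoid genes with a window. A match is a description of the letters. Rarb (chr14:16575427-16575726, minus strand) and Cyp26a1 (chr19:37697558-37697857, plus strand) are written 5′ to 3′ along the gene, with the element in capitals, whose first printed base is at position -53 from the start in Rarb and, with the element read on the opposite strand, at -32 in Cyp26a1.
Rarb: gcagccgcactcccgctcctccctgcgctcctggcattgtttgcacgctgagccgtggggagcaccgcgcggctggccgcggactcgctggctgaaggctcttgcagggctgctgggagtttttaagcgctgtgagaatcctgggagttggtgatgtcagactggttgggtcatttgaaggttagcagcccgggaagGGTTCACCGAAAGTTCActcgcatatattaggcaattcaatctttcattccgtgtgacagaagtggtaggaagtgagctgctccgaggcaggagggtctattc
Cyp26a1: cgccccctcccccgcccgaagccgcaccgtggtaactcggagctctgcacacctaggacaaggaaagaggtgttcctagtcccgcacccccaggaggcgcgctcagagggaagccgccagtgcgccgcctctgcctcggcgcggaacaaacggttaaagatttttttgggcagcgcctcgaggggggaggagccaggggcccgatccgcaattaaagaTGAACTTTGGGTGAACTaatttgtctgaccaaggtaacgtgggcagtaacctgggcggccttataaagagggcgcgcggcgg

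Neural genes were called higher more often than lower in each of 4 lists, while over all genes 6.98% were higher and 14.0% lower. The shares lower of the progenitor list (15.4%) and of the proneural and neuronal list (12.9%) were near that 14.0%. Of 26 neural progenitor genes 11 were higher and 4 lower (median 0.17), of 31 proneural and neuronal genes 13 were higher and 4 lower (median 0.51), of 17 neural crest genes 11 were higher and 1 lower (median 0.66), and of 30 axon guidance genes 15 were higher and 2 lower (median 0.24). The dorsal patterning factors Pax3 and Pax7 were among them. Pax3 had 8.20, 8.75 and 8.20 at 60 h, against 6.22, 6.08 and 5.90 at 36 h (2.32 ± 0.20, SE, limma adjusted p = 2.7e-09), and Pax7 had 6.82, 7.43 and 5.82 at 60 h, against 5.16, 5.27 and 5.02 at 36 h (1.54 ± 0.22, SE, limma adjusted p = 1e-05). Dbx1, of the intermediate neural tube, had 7.80, 8.04 and 7.85 at 60 h, against 5.83, 5.91 and 6.00 at 36 h (1.99 ± 0.11, SE, limma adjusted p = 1.7e-12). Olig2, of the ventral tube, went the other way, with 4.37, 4.23 and 5.26 at 60 h, against 6.26, 6.25 and 6.48 at 36 h (lower by at least 1.60 log2, limma adjusted p = 3e-06). The other 3 progenitor genes called lower were Gbx2, Sox2 (-0.35), the pluripotency and neural factor, and Lfng (-0.48), which modifies Notch. The call of Sox2 ended without 36 h A (-0.30) or 60 h A (-0.27). Without 36 h A, 2 of the progenitor list were lower. Sox2, Lfng and other genes outside the naming rule were chosen after their values were seen.

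Among neuronal factors, Insm1, which drives progenitors out of division, had 8.05, 8.71 and 8.25 at 60 h, against 5.87, 6.04 and 5.80 at 36 h (2.43 ± 0.27, SE, limma adjusted p = 2.2e-07). Neurog2, a proneural factor, had 5.62, 6.58 and 6.32 at 60 h, against 4.80, 4.81 and 4.62 at 36 h (1.43 ± 0.18, SE, limma adjusted p = 2e-06). Ebf2 changed by 1.40. The mean of the whole proneural and neuronal list was 6.84, 7.41 and 7.25 in arrays A, B and C at 60 h and 6.64 to 6.67 at 36 h, with 6.65 to 6.68 at 48 h. Array A was the lowest at 60 h. The 4 lower genes were Ebf1 (-1.09) and 3 genes of the neuronal cytoskeleton and growth cone, Stmn2, Ina (-1.33) and Gap43 (-1.09). Stmn2 had 10.25, 10.19 and 10.16 at 60 h, against 11.39, 11.26 and 10.95 at 36 h (limma adjusted p = 4.1e-06). The transcription factors named here other than Ebf1 were higher. The 3 structural genes were named after their values were seen, because they were lower. Other structural genes of the list, such as Tubb3, Dcx, Map2, Nefl and Nefm, were not called lower. Where genes under the 30th percentile of mean level were left out, 5 of the list were higher, since several members lie under it.

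In the neural crest list, Tfap2b was given above, and Sox9, an early crest factor, had 8.28, 8.68 and 9.01 at 60 h, against 7.26, 7.25 and 6.58 at 36 h (1.62 ± 0.18, SE, limma adjusted p = 2.8e-07, and 0.87 with the mean of its probe sets). Twist1 (1.46), Snai2 (1.08) and Zic1 also rose. Sox10, a later crest and glial factor, had 7.27, 7.52 and 7.30 at 60 h, against 8.67, 8.51 and 8.05 at 36 h, and fell (-1.04 ± 0.21, SE, limma adjusted p = 0.00056, and -0.62 with the mean of its probe sets), and 2 of the list were lower with the replicate block. Of 22 Notch genes 6 were higher and 2 lower (median 0.14), against 3 higher and 4 lower in the fit of the groups compared alone. Over all arrays the Notch shares were 27.3% and 9.1%, against 6.98% and 14.0% of all genes. Nrarp, a target and feedback inhibitor of Notch, had 9.17, 9.05 and 9.30 at 60 h, against 7.81, 7.68 and 7.61 at 36 h (1.47 ± 0.13, SE, limma adjusted p = 5.3e-09), Notch1 changed by 0.79 and Hey1, a target, by 0.64, the last of which lost its call without 60 h B (0.47). The 2 lower were Lfng and the ligand Jag2 (-0.27), whose call ended without 36 h A (-0.24) or 60 h C (-0.22), and 1 was lower without either of these arrays.

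Guidance receptors rose beside Epha3. Nrp1, a receptor for semaphorins and VEGF, had 9.79, 10.28 and 10.12 at 60 h, against 7.78, 7.95 and 8.07 at 36 h (2.13 ± 0.29, SE, limma adjusted p = 7.4e-06), with all 3 other probe sets higher. Nrp2 changed by 1.59 ± 0.30 (SE, limma adjusted p = 0.00041), Robo1, the receptor for Slits, by 1.83 ± 0.18 (SE, limma adjusted p = 4.3e-08) and Epha7 by 1.56 (1.01 with the mean of its probe sets). Epha2 and the ligand Efnb1 (-0.69) fell, and Efnb1 was not called where probe set types that can cross-hybridise were left out (-0.41). Without 60 h C, where 12.6% of all genes were lower and 6.52% higher, 5 of the 30 guidance genes were lower, as within 1 array set.

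Pluripotency genes fell, with 25 of 35 lower, 2 higher and a median of -0.66. Among all genes 14.0% were lower and 6.98% higher, and the share higher of this list, 5.7%, was near the latter. Pou5f1 (Oct4), the central factor of the stem cell state, had 10.46, 10.69 and 10.92 at 60 h, against 11.78, 11.85 and 11.83 at 36 h (-1.13 ± 0.12, SE, limma adjusted p = 9.2e-08). Nanog had 11.44, 11.54 and 11.61 at 60 h, against 12.30, 12.10 and 12.10 at 36 h (-0.64 ± 0.11, SE, limma adjusted p = 7.4e-05), with 12.30 at 48 h. Both stayed far above the median of the arrays at 60 h. Fbxo15, a target of Oct4, was higher by 0.59 ± 0.15 (SE, limma adjusted p = 0.00443), and Tbx3 by 0.54, a call that ended without any 1 of the 6 arrays, with 0.48 to 0.59, leaving 1 of the list higher. Of 18 genes of the formative and primed epiblast, 6 were lower and 1 higher (median -0.20). Nodal, the ligand that maintains the epiblast, had 10.26, 10.19 and 10.39 at 60 h, against 11.58, 11.62 and 11.59 at 36 h (-1.32 ± 0.07, SE, limma adjusted p = 2.6e-13). Fgf5, an epiblast marker, was the gene that rose, with 7.18, 7.42 and 7.23 at 60 h, against 5.60, 5.90 and 6.47 at 36 h (1.29 ± 0.34, SE, limma adjusted p = 0.0069), or 0.81 with the mean of its probe sets, and 2 of the list were higher within 1 array set.

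Of 35 endoderm genes, limma called 15 higher (42.9%) and 1 lower (2.9%), against 6.98% and 14.0% of all genes. The median was 0.50, and 19 were not called. Among the higher genes were basement membrane genes that parietal endoderm and other cells make. Lama1, a laminin chain, had 11.82, 11.78 and 11.60 at 60 h, against 9.83, 10.40 and 10.10 at 36 h (1.62 ± 0.21, SE, limma adjusted p = 3.4e-06), and Col4a1, a collagen chain, had 13.48, 13.49 and 13.25 at 60 h, against 11.54, 12.03 and 11.81 at 36 h (1.61 ± 0.22, SE, limma adjusted p = 5.8e-06). Col4a2 changed by 1.68. Cubn, an uptake receptor of visceral endoderm, had 11.25, 11.57 and 11.20 at 60 h, against 9.12, 10.08 and 9.19 at 36 h (1.88 ± 0.47, SE, limma adjusted p = 0.00506). Array B was the highest at 36 h in Cubn, Lama1, Col4a1 and the proteoglycan Srgn (1.54), and in each the 60 h arrays still lay above it. Of the endoderm transcription factors, Gata4 changed by 1.00 ± 0.20 (SE, limma adjusted p = 0.00076), Gata6 by 0.89, with arrays that overlapped and a call that ended without 36 h A (0.72) or 60 h A (0.64) and in the fit of the groups compared alone, and Sox17 by 1.07, a call lost without 36 h A (0.97), 60 h B (1.08) or 60 h C (1.03). Foxa3 fell by 0.63, a call that ended without any 1 of the 6 arrays, with -0.54 to -0.69. With the replicate block 3 of the 35 were lower.

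Of 32 mesoderm genes 8 were higher and 5 lower (median 0.03). Hand2, a heart and limb factor, changed by 1.39 ± 0.25 (SE, limma adjusted p = 0.00024, and 0.65 with the mean of its probe sets) and Foxc2, of paraxial mesoderm, by 1.30. Lmo2, of blood and vessel progenitors, had 7.01, 7.42 and 7.16 at 60 h, against 8.70, 8.97 and 9.04 at 36 h (-1.71 ± 0.27, SE, limma adjusted p = 3.9e-05), and Tcf15, a somite factor also found in epiblast, had 9.32, 9.37 and 9.37 at 60 h, against 10.93, 10.80 and 10.61 at 36 h (-1.43 ± 0.09, SE, limma adjusted p = 2.9e-11). Of 25 genes of trophoblast and surface epithelium 3 were higher and 4 lower (2 without 60 h B), with a median of -0.02. The shares lower, 15.6% of the mesoderm list and 16.0% of this one, were near the 14.0% of all genes. Gata3 had 8.54, 8.18 and 8.53 at 60 h, against 6.71, 6.61 and 6.79 at 36 h (1.71 ± 0.21, SE, limma adjusted p = 1.4e-06). Esrp1, the epithelial splicing factor, had 8.44, 7.82 and 7.46 at 60 h, against 8.82, 8.97 and 8.72 at 36 h (-0.93 ± 0.22, SE, limma adjusted p = 0.00315).

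Genes of the 2-cell-like state, a rare state of stem cell cultures that resembles the early embryo, were higher in 5 of 7 cases, lower in 1 (Eif1a at -0.31) and had a median of 1.52. Their level differed between the 60 h arrays. Tcstv1 had 9.07, 9.02 and 7.64 at 60 h, against 6.73, 6.75 and 6.52 at 36 h (1.91 ± 0.35, SE, limma adjusted p = 0.00028), and Zfp352, a retrotransposon-derived zinc finger gene, had 9.62, 9.67 and 8.18 at 60 h, against 7.07, 7.26 and 7.20 at 36 h (1.98 ± 0.26, SE, limma adjusted p = 3.2e-06). Arrays A and B stood together and C lay between them and the 36 h arrays, as it did for Tcstv3 (7.83, 7.60 and 6.20 at 60 h, 2.11 ± 0.26, SE, limma adjusted p = 1.8e-06). Usp17la (1.52) and Arg2 (1.10) lost their calls without any 36 h array, 60 h A or 60 h B, with 1.28 to 1.66 for Usp17la and 0.86 to 1.23 for Arg2, and 3 of the 7 were then higher. Tcstv1 and Tcstv3 are members of 1 gene family and their probe sets may share signal. Of 17 germ cell genes 2 were higher, Rhox6 (1.05) and Rhox9 (0.87), and 2 lower, Sycp3 (-1.11), which lost its call without 36 h A (-1.11), 36 h B (-1.03) or 60 h C (-0.76), and Dnd1 (-0.43), which lost it without 60 h B (-0.40) or 60 h C (-0.33). Without 60 h C none of these germ cell genes was lower, without 60 h A 4 were, without 36 h A, 36 h B or 60 h B 1 was, and with the replicate block 5 were. In the fit over all arrays 11.8% of the germ cell list was higher and 11.8% lower, near the 6.98% and 14.0% of all genes.

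Fibroblast and smooth muscle genes were called in 1 direction, higher at 60 h, and most of both lists had their highest mean of the 3 times at 48 h. Among 32 embryonic fibroblast genes limma called 11 higher and 0 lower, with 21 not called (median 0.76), and among 16 smooth muscle cytoskeleton genes 12 higher and 0 lower (median 0.61). The 48 h mean lay above both others in 28 of the 32 and in 16 of the 16, against 31.2% of all genes. Col3a1, a fibrillar collagen, had 12.15, 13.20 and 12.76 at 60 h, against 10.30, 10.62 and 11.37 at 36 h (1.94 ± 0.32, SE, limma adjusted p = 5.8e-05), with a 48 h mean of 13.05. Fap, an activated fibroblast protease, had 6.49, 7.75 and 7.73 at 60 h, against 5.65, 5.32 and 6.18 at 36 h (1.61 ± 0.28, SE, limma adjusted p = 0.00016). In both genes array A was the lowest at 60 h and array C the highest at 36 h, so the groups come close. Col1a1, with 10.50, 12.02 and 11.75 at 60 h, against 9.01, 10.13 and 10.53 at 36 h, overlapped, and its change of 1.53 was not called without 36 h A (1.09), 60 h B (1.23) or 60 h C (1.37), nor within 1 array set.

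The mean of the fibroblast list was 9.44 to 10.26 at 60 h, 8.96 to 9.53 at 36 h and 10.04 to 11.15 at 48 h, and the feeders are fibroblasts, so their part in these rises was not tested. The count of fibroblast genes called higher was 6 without 36 h A, 5 without 60 h B, 6 without 60 h C and 19 with the replicate block. Called shares of all genes, higher and lower, were 5.44% and 11.2% without 36 h A, 5.96% and 9.79% without 36 h B, 5.56% and 10.7% without 36 h C, 6.23% and 11.3% without 60 h A, and 5.06% and 9.72% without 60 h B.

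**Figure D4:**
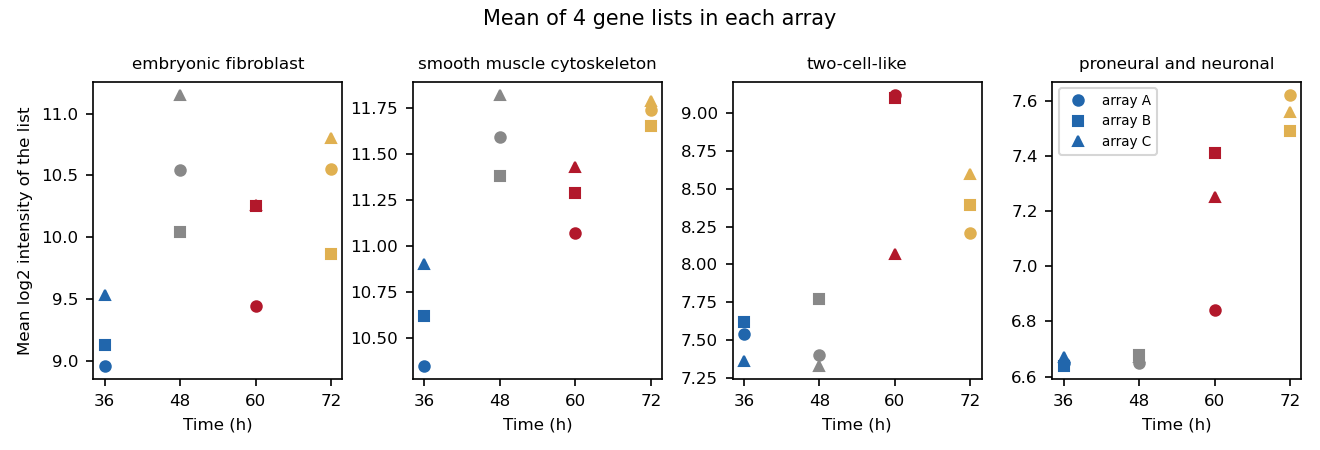
Mean log2 intensity of 4 gene lists in each array at 36 h, 48 h, 60 h and 72 h, with circles for arrays A, squares for B and triangles for C. The fibroblast list is highest at 48 h, and its 60 h A array lies below the highest 36 h array, the 2-cell-like list is high in 60 h A and B, and the proneural and neuronal list departs from its 36 h level after 48 h.

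Myl9, the light chain of smooth muscle myosin, had 11.55, 11.88 and 11.80 at 60 h, against 9.79, 10.32 and 10.67 at 36 h (1.48 ± 0.37, SE, limma adjusted p = 0.00461). Cnn1, calponin, had 9.11, 9.53 and 9.51 at 60 h, against 8.22, 8.55 and 8.77 at 36 h (0.87 ± 0.20, SE, limma adjusted p = 0.00259), and Cnn2 had 12.70, 12.80 and 12.89 at 60 h, against 11.96, 12.08 and 12.34 at 36 h (0.67 ± 0.13, SE, limma adjusted p = 0.00049). None of the 3 overlapped between the times. Tagln (1.00) lost its call without any of 5 arrays (all but 36 h C), with 0.83 to 1.09, and Cald1 (0.84) without 36 h A (0.75) or 36 h B (0.80). Another probe set of Cald1, read where types that can cross-hybridise were left out, gave 1.82. Acta2, smooth muscle actin, had 12.91, 13.46 and 13.76 at 60 h, against 11.26, 12.19 and 12.92 at 36 h, which overlap, and was not called (1.25, limma adjusted p = 0.139). Promoters of Myl9 and Cnn2 are shown because both genes were called higher and hold a CArG box. This is the site of serum response factor, on which many genes of contractile actin rely. The 2 genes were picked after 9 motifs were searched in 8 lists, and any part of the box in their changes was not tested. The box was found in 488 of 27025 windows (1.81%) and in 3 of 13 smooth muscle genes with a window (Myl9, Cnn2 and Vcl). Myl9 (chr2:156775214-156775513) and Cnn2 (chr10:79988350-79988649), both on the plus strand of GRCm38.p6, are written from RefSeq with the box in capitals, whose first base is at position -161 from the start in Myl9 and -56 in Cnn2.
Myl9: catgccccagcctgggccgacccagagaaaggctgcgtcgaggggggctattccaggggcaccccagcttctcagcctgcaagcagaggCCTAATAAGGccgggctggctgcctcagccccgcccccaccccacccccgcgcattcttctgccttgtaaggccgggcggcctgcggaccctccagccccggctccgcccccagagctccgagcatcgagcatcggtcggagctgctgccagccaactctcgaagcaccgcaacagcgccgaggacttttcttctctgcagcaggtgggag
Cnn2: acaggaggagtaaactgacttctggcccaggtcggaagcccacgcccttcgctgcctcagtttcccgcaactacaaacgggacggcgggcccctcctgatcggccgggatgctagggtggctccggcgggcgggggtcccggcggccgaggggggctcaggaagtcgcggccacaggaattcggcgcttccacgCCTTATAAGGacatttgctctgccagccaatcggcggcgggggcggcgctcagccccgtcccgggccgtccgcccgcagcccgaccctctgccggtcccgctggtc

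The signalling lists each held genes called in both directions, and over all genes 6.98% were higher and 14.0% lower. Of 28 genes of BMP, TGF-beta and Nodal signalling 12 were higher and 6 lower (median 0.31), and the Nodal branch made up the large falls. Nodal, Lefty1, Lefty2 and Tdgf1 fell as given above, while Bmp5, with 5.23, 5.43 and 5.95 at 60 h, against 3.72, 3.92 and 4.12 at 36 h, rose by at least 0.81 (limma adjusted p = 1e-07, and 0.74 with the mean of its probe sets) and Tgfbi, a matrix protein that TGF-beta induces, changed by 1.57 ± 0.22 (SE, limma adjusted p = 6.6e-06). Tgfb1 (-0.42) and Skil (-0.23), named after their values were seen, completed the falls, and each lost its call without 36 h B (-0.41 and -0.19), Tgfb1 also without 36 h C (-0.35), 60 h A (-0.22) or 60 h B (-0.49), and Skil without 60 h C (-0.18). Both lost it in the fit of the groups compared alone and after a second quantile normalization. Tgfb1 lost it also within 1 array set, with arrays centred on their medians and with the mean of its probe sets (-0.12), which gave -0.44 for Skil. Of 19 FGF genes 8 were lower and 4 higher (median -0.36). The ERK target Etv5 had 8.21, 8.52 and 9.13 at 60 h, against 10.27, 10.17 and 10.44 at 36 h (-1.67 ± 0.15, SE, limma adjusted p = 1.1e-08), Etv4 changed by -1.16 and Fgf17 by -1.33, and Fgf4, an autocrine ligand of stem cells, by -0.99. With the mean of their probe sets Etv4 and Fgf4 each changed by -0.56.

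Of 15 hedgehog genes 5 were higher (33.3%) and 3 lower (20.0%), against 6.98% and 14.0% of all genes (median 0.04). The 3 lower were targets of the pathway, and Foxa2 and Nkx2-2, also on the list, were not called. Gli1, a transcription factor that hedgehog signalling induces, had 7.36, 7.04 and 7.13 at 60 h, against 8.81, 8.88 and 8.84 at 36 h (-1.67 ± 0.14, SE, limma adjusted p = 3.8e-09). Ptch1, the receptor and also a target, had 11.74, 11.43 and 11.27 at 60 h, against 12.75, 12.68 and 12.66 at 36 h (-1.22 ± 0.17, SE, limma adjusted p = 6e-06, and -0.76 with the mean of its probe sets), and Hhip, a target that binds the ligand, changed by -0.99 ± 0.26 (SE, limma adjusted p = 0.00781). None of the 3 overlapped. Among the coreceptors, Gas1 had 13.61, 13.63 and 13.52 at 60 h, against 12.28, 12.29 and 11.93 at 36 h (1.42 ± 0.39, SE, limma adjusted p = 0.00892), Boc changed by 0.94 and Cdon by 0.77 (0.40 with the mean of its probe sets). Gli3 (0.49) lost its call without 36 h A (0.46) or 60 h B (0.45) and with the mean of its probe sets (0.26), and Smo (0.35) without probe set types that can cross-hybridise (0.09).

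Of 31 Wnt genes 9 were higher and 4 lower (median 0.15), and 14 were higher with the replicate block. In the fit over all arrays 29.0% were higher, against 6.98% of all genes. The share lower, 12.9%, was near the 14.0% of all genes. Wnt4 had 9.08, 9.87 and 9.52 at 60 h, against 7.92, 8.11 and 7.85 at 36 h (1.53 ± 0.19, SE, limma adjusted p = 1.2e-06), and Wnt11 changed by 1.10. Rspo1, which amplifies Wnt signals, changed by -1.01 ± 0.25 (SE, limma adjusted p = 0.00395). Wnt5a had 6.10, 7.05 and 6.89 at 60 h, against 5.15, 5.53 and 6.41 at 36 h. These overlap, and its call (0.98) ended without 36 h A (0.71), 36 h B (0.90), 60 h B (0.80) or 60 h C (0.88) and in the fit of the groups compared alone.

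Imprinted growth genes were higher in 7 of 21 cases and lower in 2 (median 0.29), against 6.98% of all genes higher and 14.0% lower. Igf2, the fetal growth factor, had 13.95, 13.94 and 13.68 at 60 h, against 12.19, 12.04 and 11.85 at 36 h (1.83 ± 0.49, SE, limma adjusted p = 0.00826), and Peg3 had 13.44, 13.40 and 13.49 at 60 h, against 12.02, 12.13 and 12.11 at 36 h (1.36 ± 0.13, SE, limma adjusted p = 2.2e-08). Igf2r changed by 1.23. Dlk1 changed by 1.72, and a fit without probe set types that can cross-hybridise gave 0.08, not called, and the mean of its probe sets gave 0.90. Phlda2, a growth restrainer, had 8.87, 8.46 and 8.26 at 60 h, against 10.44, 10.26 and 10.12 at 36 h (-1.75 ± 0.28, SE, limma adjusted p = 4.8e-05). The other fall was Impact (-0.34), named after its values were seen. Its call ended without 36 h C (-0.29), 60 h A (-0.25) or 60 h B (-0.29), in the fit of the groups compared alone and with the mean of its probe sets (-0.06). With any of those 3 arrays left out, 1 of the list was lower.

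Genes of growth and metabolism were called in 1 direction, lower, which was also the more frequent direction over all genes (14.0% lower, 6.98% higher). Of 19 cholesterol synthesis genes 15 were lower and 0 higher (median -0.58). Fdps had 11.11, 11.52 and 11.35 at 60 h, against 12.20, 12.35 and 12.19 at 36 h (-0.92 ± 0.12, SE, limma adjusted p = 3.8e-06, and -0.46 with the mean of its probe sets), Lss had 9.35, 9.37 and 9.33 at 60 h, against 10.18, 10.36 and 10.21 at 36 h (-0.90 ± 0.15, SE, limma adjusted p = 7.2e-05), and Insig1, the feedback regulator of the pathway, changed by -0.91. Of 29 cell cycle genes 11 were lower and 0 higher (median -0.14), and 6 were lower in the fit of the groups compared alone. These changes were small, with -0.50 ± 0.10 (SE, limma adjusted p = 0.00078) for Cdc6 and -0.38 for Mcm2, which load and form the replication helicase, and -0.34 for the mitotic kinase Plk1, and 1 of the list was higher without 60 h A. Of 22 glycolysis and hypoxia genes 7 were lower and 0 higher (median -0.30), and 11 were lower without 60 h A. Car9, a hypoxia target, changed by -0.75 ± 0.14 (SE, limma adjusted p = 0.0003), while Pfkp (-0.99) and Slc16a3 (-0.78) each lost the call without 36 h B (-0.84 and -0.63) or 60 h C (-0.77 and -0.46), and Pfkp also without 36 h A (-0.93) or 60 h B (-1.07) and with the mean of its probe sets (-0.48). Of 24 genes of the amino acid stress response 6 were lower and 0 higher (median -0.28), and 10 were lower within 1 array set. The arginine transporter Slc7a3 had 7.70, 7.93 and 8.92 at 60 h, against 9.76, 9.83 and 10.15 at 36 h (-1.73 ± 0.31, SE, limma adjusted p = 0.00021), and the serine synthesis enzymes Psat1 and Psph changed by -0.95 and -0.97.

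**Figure D5:**
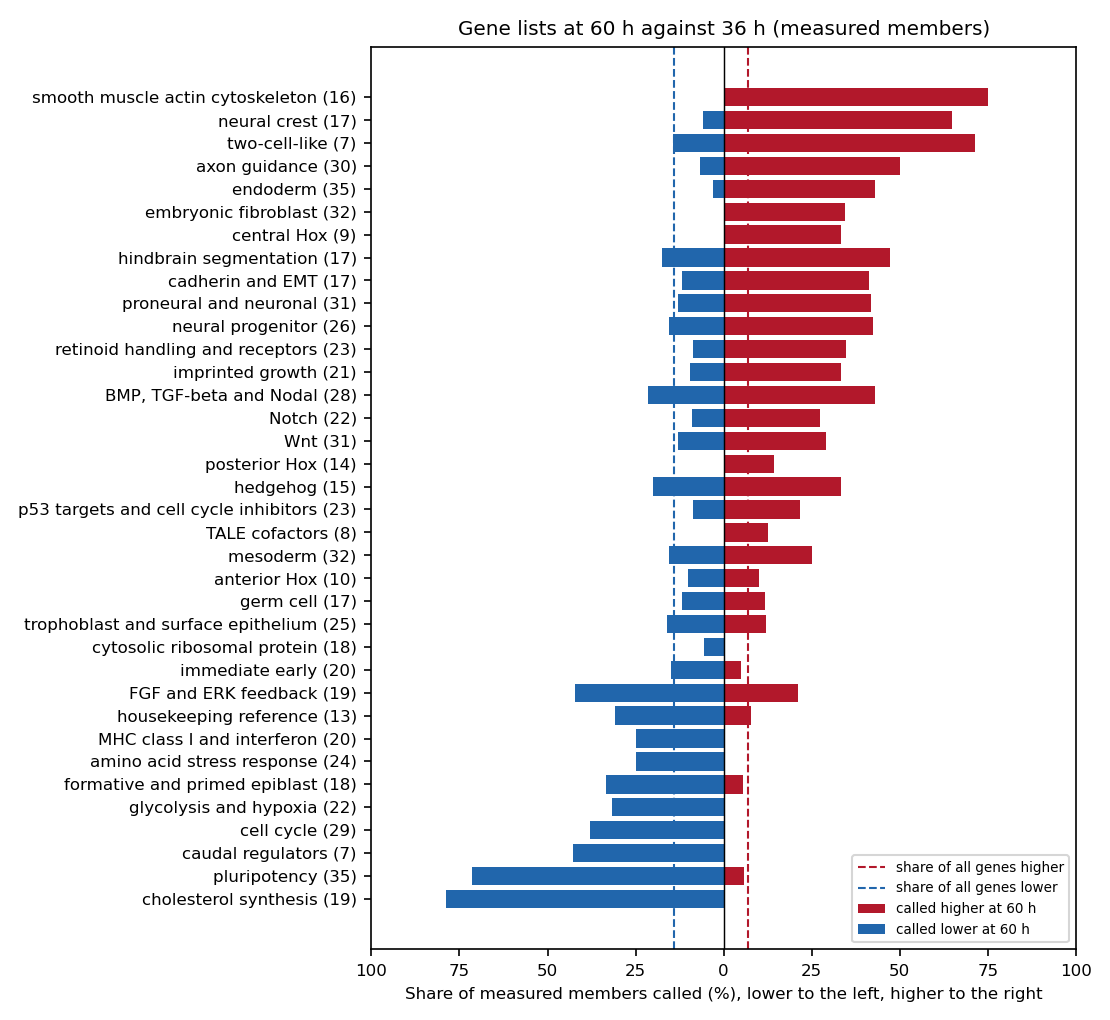
Share of the measured members of each of 36 gene lists called at 60 h against 36 h (limma adjusted p under 0.05), with members called higher drawn to the right and members called lower to the left. Dashed lines mark the share of all genes called, 6.98% higher and 14.0% lower, and the number measured stands in brackets. Smooth muscle, neural crest and 2-cell-like genes reach furthest to the right, cholesterol synthesis and pluripotency genes furthest to the left.

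Among inhibitors of the cell cycle and p53 targets 5 of 23 were higher and 2 lower (median 0.04), against 6.98% of all genes higher and 14.0% lower. Gadd45g changed by 1.05 ± 0.19 (SE, limma adjusted p = 0.0002), Cdkn2b (p15) by 0.94 ± 0.19 (SE, limma adjusted p = 0.00079) and Pmaip1 (Noxa) by -0.64. Gadd45b (0.74) and Cdkn2a (0.63) each lost the call without any of 5 arrays, with 0.59 to 0.80 and 0.56 to 0.71, and Perp (-0.54) without 36 h A (-0.49), 60 h B (-0.41) or 60 h C (-0.51). The number higher was 2 or 3 without any 36 h array, 60 h B or 60 h C. Of 20 genes of MHC class I and interferon 5 were lower and 0 higher (median -0.21), and 8 were lower with the replicate block. H2-K1, a class I chain, had 11.94, 11.78 and 11.39 at 60 h, against 12.47, 12.68 and 12.23 at 36 h (-0.76 ± 0.12, SE, limma adjusted p = 3.6e-05). Of 17 cadherin and EMT genes 7 were higher and 2 lower (median 0.52), with Cdh11, a mesenchymal cadherin, at 1.81 ± 0.37 (SE, limma adjusted p = 0.00084) and a 48 h mean above both. Of 18 ribosomal protein genes 1 was lower (Rpl14 at -0.46), 2 without 60 h C, and 0 higher (median -0.01). Of 13 housekeeping genes 4 were lower (Hprt at -0.49, Tfrc at -0.46, Tbp at -0.30 and Sdha at -0.25) and 1 higher, Actb at 0.16, which lost its call without 36 h B, 36 h C or any 60 h array, with 0.14 to 0.16. Actb lost it also with the mean of its probe sets (0.07) and without probe set types that can cross-hybridise (-0.02). Tfrc lost its call without 60 h A (-0.25) and with the mean of its probe sets (-0.16), Sdha with that mean (-0.10), and Tbp without probe set types that can cross-hybridise (-0.32).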

How the data were processed

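Of 8 times on Affymetrix mouse arrays, 3 arrays at 60 h were compared with 3 at 36 h. The values are log2 intensities as deposited by the authors. The submitters' processing notes name limma 3.8.3, and the methods of background correction, summary and normalization are not given in the sources used here. The values read here come without detection calls or counts, and precision rests on the number of arrays. The files hold 45101 probe sets. Controls (64) and probe sets that name no gene (9160) or more than 1 (932) were dropped, which kept 34945 for 18193 genes, and the probe set with the highest mean over all arrays stood for the 9010 genes with more than 1.

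A limma 3.58.1 model (R 4.3.3) with a mean for each time was fitted over all 30 arrays, which share 1 estimate of the spread, with Benjamini-Hochberg adjustment over all genes. The timing contrast was (60 h minus 48 h) minus (48 h minus 36 h). Simulated data for this comparison held 18193 genes with independent normal noise, no separate array sets and no array that stood apart. In them 57 genes were shifted by 0.5 log2, 73 by 1 and 70 by 2, either up or down. The fit called 70.2%, 98.6% and 100% of these, and 6 unchanged genes. The real arrays differ from those settings, so these rates need not hold for them.

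Named genes were the 15 largest called rises and the 15 largest called falls whose arrays did not overlap (unnamed clones and predicted genes left out), any Hox, TALE, hindbrain, caudal or retinoid member, and up to 5 members with the largest change in each other list of 36. Of 820 list names 750 were measured. The members and lists were chosen with earlier results of these data known, and genes outside the rule were named after their values were seen. Alternatives were fits of the groups compared or of 1 array set, other normalizations, filters and probe set rules, a variance trend, array weights, a replicate block and leaving out each array. Between 60 h and 36 h, deviations from the group mean correlated at 0.261 (A), 0.167 (B) and 0.542 (C) for arrays with the same letter. The deviations of 36 h B correlated more with those of 60 h A (0.304) than with those of 60 h B. The block used the letters of the titles, and these correlations do not settle whether equal letters belong together. Over all arrays the block also takes up the difference between letters A to C and D to F.

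Promoters are RefSeq windows (GRCm38.p6) from 250 bases before to 50 after the start. On both strands they were searched for the DR5 and DR2 retinoic acid response elements, the CArG box, the GLI site GACCACCCA, the E boxes CAGATGG and then CACGTG, the amino acid response element TGATGNAA, the sterol regulatory element TCACNCCAC and a wider form of it that overlaps it. The searches other than DR5 and the CArG box are not printed.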

Additional observations from a re-analysis of the deposited data

Results flagged for a closer look

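Among the 30 genes with the largest rises and falls and the Hox, TALE, hindbrain, caudal and retinoid genes, there were 18 in which the change between 48 h and 60 h differed from that between 36 h and 48 h by the limma contrast of both steps (log2, the later step minus the earlier). Each contrast below had a limma adjusted p under 0.05 over all genes, with 3 arrays a time. The contrast was positive for Egr2 (3.36), Mir124-2hg (2.63), Tmem255a (2.22), Adamts20 (2.10), Neurod4 (1.64), Prdm8 (1.61), Hoxb4 (1.57), Hoxc4 (1.38), Hoxd1 (1.31), Pou3f1 (1.10), Crabp2 (1.10), Hoxd3 (0.89) and Irx3 (0.66). It was negative for Cdx1 (-1.90), Tgm2 (-1.26), Crispld2 (-1.13), Hoxa11 (-0.88) and Hoxc13 (-0.67). The contrasts of Egr2, Mir124-2hg, Hoxc4, Pou3f1, Irx3 and Cdx1 kept their call in every alternative fit that was run, and each of the other 12 lost it in at least 1.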

How the results depend on the processing

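For 60 h against 36 h, the count of 3817 genes called was 7720 with array weights, whose fit did not converge fully, and 2689 to 3472 when 1 array was left out. The timing of the change, called in 888 genes, was called in 538 with only the 36 h, 48 h and 60 h arrays, 1817 within 1 array set, 2553 with array weights and 2186 with the replicate block, and in 519 to 1359 when 1 array was left out. The replicate block called 5395 genes between 60 h and 36 h, ended the call of 0 of the 267 named genes and called 25 more. Without probe set types that can cross-hybridise, Tmem255a had a timing contrast of -0.24 and Actb a change of -0.02, each on another probe set. Of the 267 named genes, 50 lost a call under at least 1 alternative. The causes were not tested. With 3 arrays a time and no detection calls, small changes and levels near 4.73 are the least certain.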
